A study of Mus musculus with 6 samples.

Results

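The genes of the general translation factors, the eIF proteins that start protein synthesis and the eEF proteins that lengthen the chain, were followed in mouse tumor organoids (MTOs). Members were the protein-coding genes whose mouse symbols begin with Eif1 to Eif6 or with Eef1 or Eef2. The GRCm38 annotation holds 68 such genes, and 64 of them were among the 20756 genes of the deposited table. Eef1a2, Eef1akmt4, Eif4e1b and Eif4ebp3 were not analysed here. Of the 64 genes, 60 reached 5 CPM (reads scaled to a total of 1000000 per library) in at least 3 libraries and were tested together with the other genes that did, 9558 in all. Eef1akmt3, Eif3j2, Eif4e3 and Eif5a2 were below that level.

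MTOs are epithelial cultures grown in a gel from intestinal tumors, here labelled as strain C57BL/6 and received by the study from another laboratory as a male line. A CRISPR guide against Prkci (sgPrkci, replicates 10, 11 and 12) or against Prkcz (sgPrkcz, replicates 13, 14 and 15) had been used to disrupt the gene of an atypical protein kinase C, PKCλ/ι or PKCζ. All 6 cultures were untreated and shared a medium of advanced DMEM/F12 with HEPES, Glutamax, B-27 and EGF, and the comparison asks how tumor cells targeted for either kinase differ. Libraries with a control guide were not analysed here, and every direction is sgPrkci relative to sgPrkcz. The study calls its samples biological replicates, but nothing states whether the 3 libraries of a group were separate clones, infections or passages. The p-values thus measure only the spread between these libraries, which may come from the same targeted line. Groups follow the sample labels, and in 1 place the study's source data name these libraries the opposite way, under which every direction would reverse.

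The libraries held 1593480 to 2815760 reads, so that 1 read was worth 0.355 to 0.628 CPM. The tags do not check the labels, because small guide-made lesions need not lower a 3' end: Prkci gave 46.9 to 56.5 CPM in sgPrkci and 34.5 to 72.3 CPM in sgPrkcz, and Prkcz gave 5 to 13 reads in every library. Of 8 epithelial markers Krt8, Krt18, Krt19, Cdh1 and Epcam were abundant in all 6 libraries and Cdx1 was at 0, while the listed markers of leukocytes, fibroblasts and endothelium summed to at most 2.34 CPM each in any library. Of these 8 markers 3 were lower and 2 higher in sgPrkci, and the part that this played in the results on translation factors was not tested. Genes that collect ribosomal RNA reads (Gm42418, mt-Rnr1 and mt-Rnr2) took 21.2% to 24.0% of the sgPrkci reads and 17.6% to 19.4% of the sgPrkcz reads, and since CPM add up to a fixed total a larger share leaves less for other genes. The median log2 fold change of all tested genes was -0.11, and it moved to 0.0016 when CPM were rescaled by TMM factors. Small decreases are to be read against that shift.

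As background, translation begins when eIF2 bound to GTP brings the initiator methionyl-tRNA to the small ribosomal subunit, where eIF3, eIF1 and eIF1A hold the complex open, while eIF4E, eIF4G and eIF4A recruit the capped mRNA. After each round eIF2B recharges eIF2 with GTP, a step that stops when a stress kinase phosphorylates eIF2. In elongation eEF1A delivers each aminoacyl-tRNA and eEF2 moves the ribosome by a codon. In mouse intestinal tumors that lack Apc, the kinase mTORC1 is known to speed elongation through eEF2 kinase.

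Many mRNAs of the translation machinery begin with a run of pyrimidines at the start site, through which mTORC1 and LARP1 control their translation, and for that reason the start sites of 6 members are shown. Sequences are RefSeq's on GRCm38.p6, whose promoter table matched 50 of the 64 members. Each line gives 15 bases before the annotated start and 15 from it, 5' to 3' on the gene's strand, with the longest run of C and T in capitals. Of the 7 members called lower or higher that have a run of at least 10, they are the 5 with a single annotated start, beside Eif2s3x, the X-linked partner of Eif2s3y. Eif4e and Eif4enif1 have such a run at 1 of several annotated starts. A run can lie partly before the start: it begins 15 bases before it in Eif2b5 and 1 base after it in Eif2s3y. A run in the window is therefore no evidence of a pyrimidine tract at the mRNA's own start. The first window shown is at chr16:20498802-20498831 (plus strand), followed by chr7:108934400-108934429 (plus), chr15:79075208-79075237 (plus), chr9:78481710-78481739 (minus), chrX:94212637-94212666 (minus) and chrY:1010580-1010609 (plus).
Eif2b5: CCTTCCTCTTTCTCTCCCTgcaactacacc
Eif3f: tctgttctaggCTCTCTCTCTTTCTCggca
Eif3l: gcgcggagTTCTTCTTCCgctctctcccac
Eef1a1: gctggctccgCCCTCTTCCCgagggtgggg
Eif2s3x: ctgccgagcaTTTTCCTTTTCTCTCCgagc
Eif2s3y: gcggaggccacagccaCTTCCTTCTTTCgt

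A run of at least 8 pyrimidines lay in such a 30-base window in 11 of 50 members (22.0%), in 14.5% of the tested genes with a window and in 13.9% of all genes of the table. It was present in 5 of the 22 matched members that were lower in sgPrkci and in 4 of 24 that did not pass the test. Among the 3 called higher it was present in Eef1a1 and Eif2s3y. The call of Eif2s3y is no support, since the gene reached the filter only through the sgPrkci libraries. The 300-base promoters (250 bases before the start and 50 after) were also searched for the E-box CACGTG, which reads the same on both strands and is a site that MYC and other factors can bind. It was found in 12 of 50 members (24.0%), against 12.5% of the tested genes and 8.09% of all genes. By call it was found in 6 of 22 members that were lower, in 4 of 24 that did not pass, in Eif4h among the 3 higher ones and in Eif5a2, which was not tested. The 3 shown are all lower calls. Genes with several annotated starts had more windows to match, and a match in the letters is no evidence of binding. The E-box of Eef2 was 43 bases before the start, at chr10:81176568-81176613 (plus), that of Eif3f 68 bases before, at chr7:108934327-108934372 (plus), and that of Eif4g1 54 bases before, at chr16:20672653-20672698 (plus, with another E-box 15 bases after the start), each shown with its flanks and with the E-box in capitals.
Eef2: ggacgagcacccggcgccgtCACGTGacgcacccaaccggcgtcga
Eif3f: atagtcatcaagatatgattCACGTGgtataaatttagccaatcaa
Eif4g1: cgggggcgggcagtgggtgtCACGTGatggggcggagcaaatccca

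More translation factor genes were called lower than higher in sgPrkci against sgPrkcz MTOs. Of the 60 tested members 31 were lower, 3 were higher (Eif2s3y, Eef1a1 and Eif4h) and 26 did not pass. Eif2s3y reached the filter only through the sgPrkci libraries, where it is high, so its place in these counts is no support. Across all 9558 genes 26.5% were lower and 14.4% higher. The median log2 fold change of the members was -0.29. With TMM factors the members' median was -0.17, 23 members were lower and 6 higher, and of all genes 19.8% were lower and 20.7% higher. By edgeR 21 members were lower and 7 higher, with 20.2% and 21.0% of all genes, and by DESeq2 19 and 4, with 14.1% and 15.2%. The groups did not overlap in 31 members that were lower and 5 that were higher, where 31.8% and 18.2% of all genes did so. Of the 31 lower calls 18 remained in every alternative that tested the gene, among them Eif2s2, Eif3d, Eif4a3, Eif4ebp1, Eif5a and Eef1d. The summed level of the 64 genes was 11449 ± 166 CPM (SD, n = 3) in sgPrkci, or 1.14% of the reads, and 14201 ± 316 CPM in sgPrkcz, or 1.42%. In bulk RNA, fewer cells of a kind and less RNA per cell cannot be told apart.

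**Figure D1:**
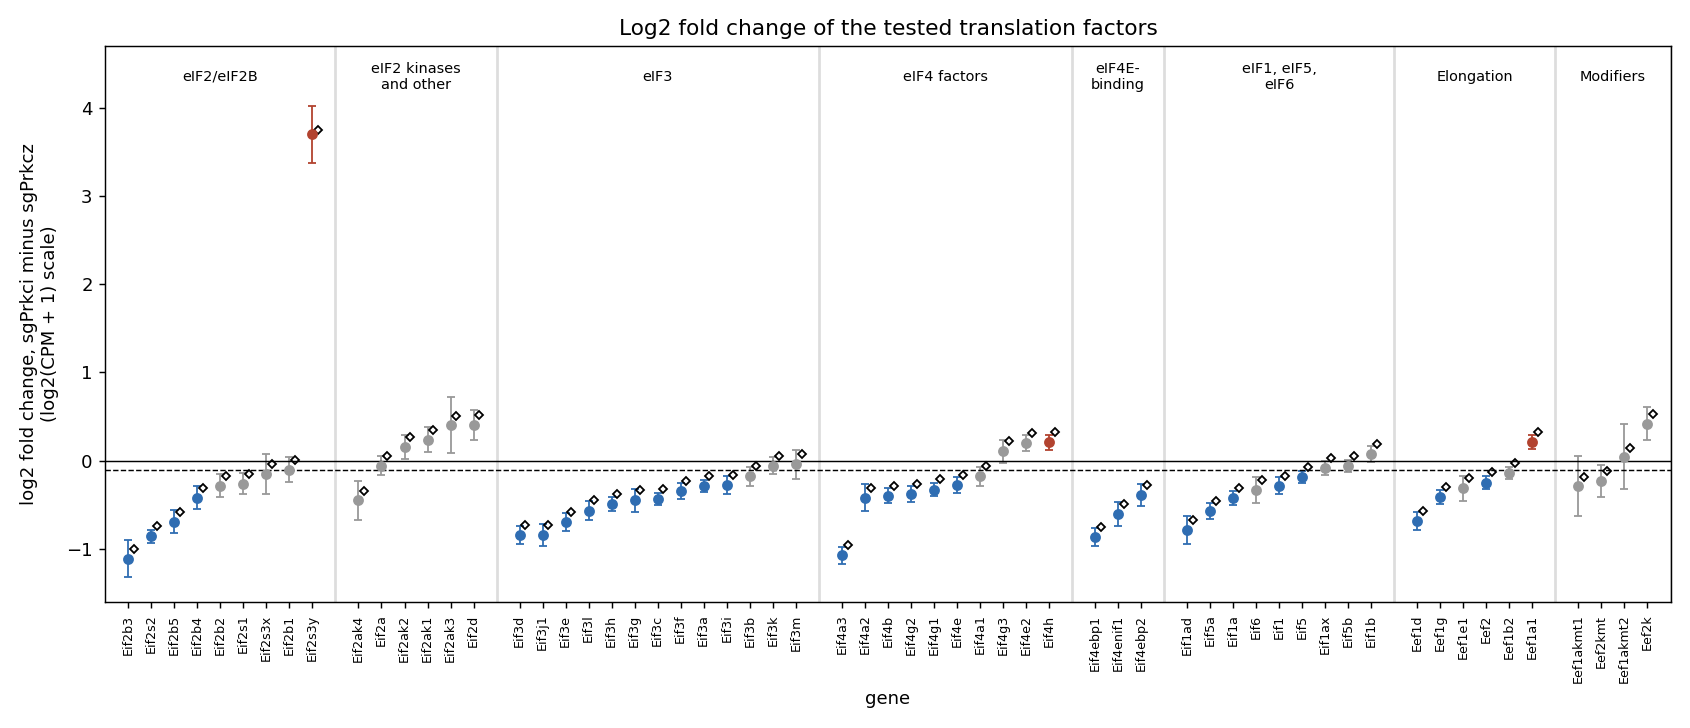
Log2 fold change (sgPrkci minus sgPrkcz, log2(CPM + 1) scale) of the 60 tested translation factors, ordered within each family. Circles with bars are the estimate ± SE, blue where lower and red where higher at an adjusted p under 0.05 and grey otherwise, open diamonds are the estimates with TMM factors, and the dashed line is the median of all genes (-0.11). Blue circles fill most of the eIF3 panel (10 of 13), and the 6 kinases and other eIF2-named factors are all grey. Eif2s3y, at 0 in every sgPrkcz library, is drawn at a fitted 3.70 that depends on the pseudocount. It reached the filter only through the sgPrkci libraries, so its red call is no support.

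The families differed in how far they were below sgPrkcz. The eIF2/eIF2B genes summed to 1260, 1237 and 1213 CPM in sgPrkci against 1946, 2222 and 2087 CPM in sgPrkcz. Most of this gap is 1 gene, Eif2s2, which made up 77.2% of the sum in sgPrkci and 83.3% in sgPrkcz. Without Eif2s2 the family summed to 282 ± 16.7 CPM (SD, n = 3) against 348 ± 11.6 CPM. The eIF3 genes summed to 2457, 2391 and 2469 CPM against 3236, 3281 and 3236 CPM. The eIF4 factors summed to 1773, 1672 and 1608 CPM against 2069, 2099 and 1953 CPM. In each of these families every sgPrkci library was below every sgPrkcz library. The elongation factors were closer, at 3480, 3260 and 3239 CPM against 3664, 3767 and 3552 CPM, also without overlap. A ratio of families within a library does not depend on the scaling. Relative to the elongation factors, the eIF2/eIF2B sum, most of it Eif2s2, was 0.372 ± 0.00888 (SD, n = 3) in sgPrkci and 0.569 ± 0.0333 in sgPrkcz. The corresponding ratio was 0.734 ± 0.0282 against 0.888 ± 0.0205 for eIF3, and 0.506 ± 0.00868 against 0.557 ± 0.00759 for the eIF4 factors. All of these ratios were lower in every sgPrkci library, while that of the eIF1, eIF5 and eIF6 genes overlapped between the groups (0.685 ± 0.0477 against 0.706 ± 0.0186). The ratios share a denominator that includes Eef1a1, so they are not independent of each other. Eef1a1 was itself called higher in sgPrkci, and its count is uncertain because other genes share its 3' end. Ratios without Eef1a1 are not given, and how far the lack of overlap rests on it was not tested. Among pairs of single tested genes with reads in every library, the groups did not overlap in 48.2%. Such a share was not computed for family sums.

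**Figure D2:**
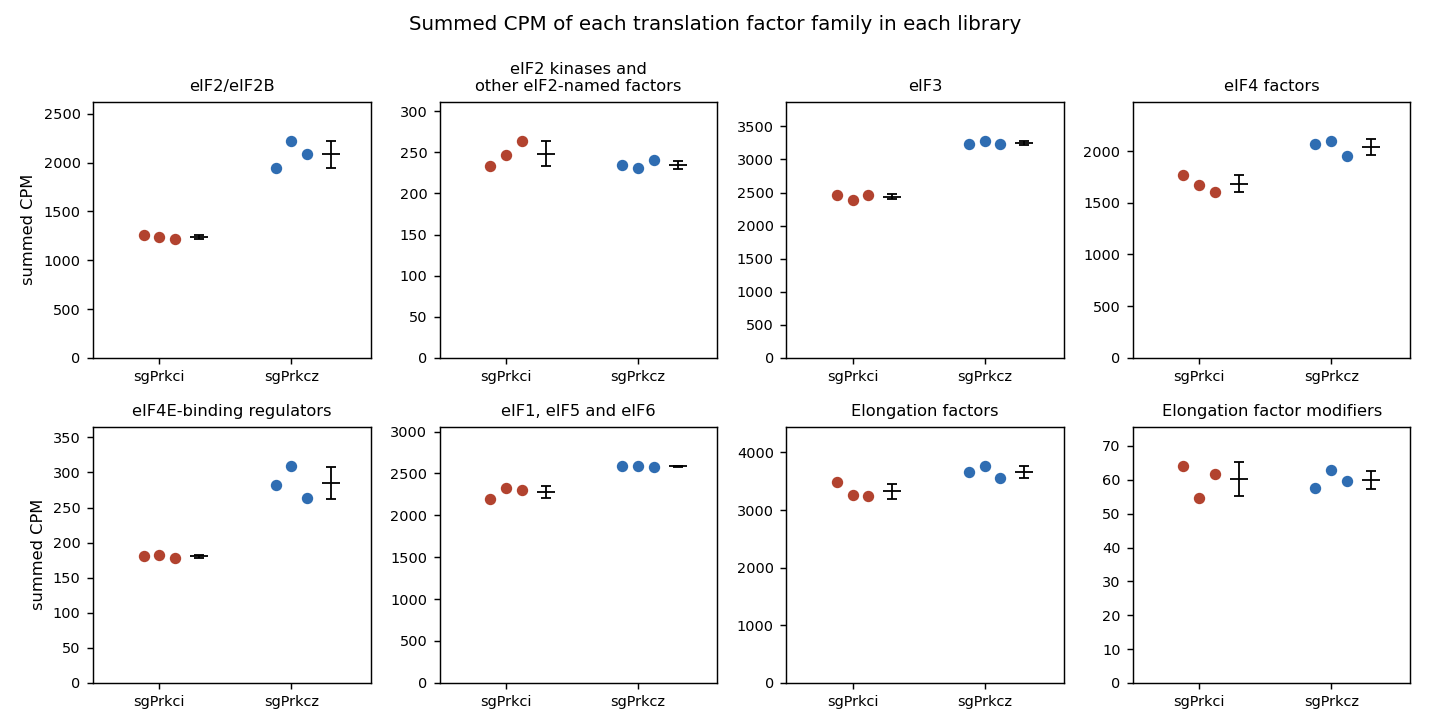
Summed CPM of the 8 translation factor families in each library (red sgPrkci, blue sgPrkcz), with the mean and SD of the 3 libraries of a group in black. The axes start at 0, and the groups are widest apart for eIF2/eIF2B (means 1237 and 2085 CPM, or 282 and 348 CPM without Eif2s2). They overlap for the eIF2 kinases and for the elongation factor modifiers.

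Among the 9 genes of eIF2 and its exchange factor eIF2B, 4 were lower, with a median log2 fold change of -0.28 (3 lower with TMM factors). Of all genes 26.5% were lower, and 19.8% with TMM factors. The 1 higher call under either scaling, of Eif2s3y, is no support, since the gene reached the filter only through the sgPrkci libraries. Eif2s2 (ENSMUSG00000074656, chromosome 2, 154871410 to 154892935, minus strand), which encodes eIF2β, had the highest mean CPM over the 6 libraries among the tested members. It measured 960, 962 and 944 CPM in sgPrkci against 1590, 1868 and 1752 CPM in sgPrkcz. The sgPrkci libraries lay close together and well below all 3 sgPrkcz libraries (a log2 difference of -0.86 ± 0.07 SE with an adjusted p = 1.97e-09). Gm9892, which shares the 3' end of Eif2s2, held at most 9.41 CPM. Eif2s2 made up 77.2% ± 0.944 of the family's CPM in sgPrkci and 83.3% ± 1.33 in sgPrkcz, and without it the family still summed to less, 282 ± 16.7 against 348 ± 11.6 CPM, with no overlap.

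The genes of eIF2B followed in part. Eif2b5 (chromosome 16, 20498817 to 20509323, plus strand), the catalytic ε subunit, measured 39.6, 35.0 and 36.2 CPM in sgPrkci against 51.5, 63.4 and 66.7 CPM in sgPrkcz, lower in every sgPrkci library (-0.69 ± 0.13, adjusted p = 0.000245). Eif2b3, the γ subunit that pairs with ε, measured 8.67, 8.41 and 7.81 CPM against 18.2, 17.6 and 21.6 CPM. These values are low but the groups were far apart, and the difference was -1.11 ± 0.21 (adjusted p = 0.000197). Eif2b4, the δ subunit, measured 36.6, 36.9 and 38.7 CPM against 48.2, 55.2 and 48.0 CPM (-0.42 ± 0.13, adjusted p = 0.0127), a call that was lost with TMM factors (adjusted p = 0.0637) and without replicate 14 of sgPrkcz (adjusted p = 0.0542). Eif2b1 and Eif2b2, the α and β subunits, did not pass (-0.10 and -0.28), although Eif2b2 was lower in every sgPrkci library and passed without replicate 10 (adjusted p = 0.0455). The 5 eIF2B genes together summed to 177 ± 7.70 CPM in sgPrkci against 238 ± 5.36 CPM in sgPrkcz. Eif2s1, which encodes the α subunit that stress kinases phosphorylate, was the most abundant member of the family that did not pass. Its values were 85.2, 69.6 and 77.8 CPM against 102, 101 and 77.8 CPM, so that replicate 15 of sgPrkcz lay among the sgPrkci libraries (-0.26 ± 0.12, adjusted p = 0.0807). Without that replicate the adjusted p was 0.0128.

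The γ subunit of eIF2, which binds the initiator tRNA, is encoded in the mouse by an X-linked and a Y-linked gene, and the Y-linked copy separated the groups completely. Eif2s3y (ENSMUSG00000069049, chromosome Y, 1010543 to 1028847, plus strand) measured 12.8, 12.1 and 11.01 CPM in sgPrkci (34, 26 and 31 reads) and 0 in all 3 sgPrkcz libraries. With 0 of 5998944 reads over the sgPrkcz group, the floor of 3 reads is 0.5001 CPM, and the level in sgPrkci was at least 24.0-fold higher, counting error only. No test is given, since the gene reached the filter only through the group where it is high. Eif2s3x (chromosome X, 94188707 to 94212862, minus strand) measured 21.1, 11.7 and 12.8 CPM against 18.2, 18.8 and 12.9 CPM, with overlap, and did not pass (-0.15 ± 0.23, adjusted p = 0.632). The sum of both genes was 33.9, 23.8 and 23.8 CPM in sgPrkci against 18.2, 18.8 and 12.9 CPM in sgPrkcz, higher in every sgPrkci library. At 5 CPM in 3 libraries Eif2s3y cannot be tested when an sgPrkci library is left out, since only 2 libraries then hold reads.

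The absence of reads was not particular to Eif2s3y, as seen in other Y-linked genes that were chosen after the values of Eif2s3y were seen. Ddx3y, a Y-linked RNA helicase, measured 15.5, 21.5 and 22.0 CPM in sgPrkci and 0 in sgPrkcz. Uty, a histone demethylase paralog, measured 5.28, 7.47 and 6.75 CPM against 0, and Kdm5d, a histone demethylase, 6.79, 5.605 and 6.04 CPM against 0. Of 7 Y-linked genes that were looked up, 5 were in the table. Over these 5 the sgPrkcz libraries held 1 read, of Usp9y in replicate 13, and Usp9y had 0 reads in every sgPrkci library. The difference of Eif2s3y therefore moved with Ddx3y, Uty and Kdm5d. Guide and culture are the same split of the libraries and cannot be told apart.

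**Figure D3:**
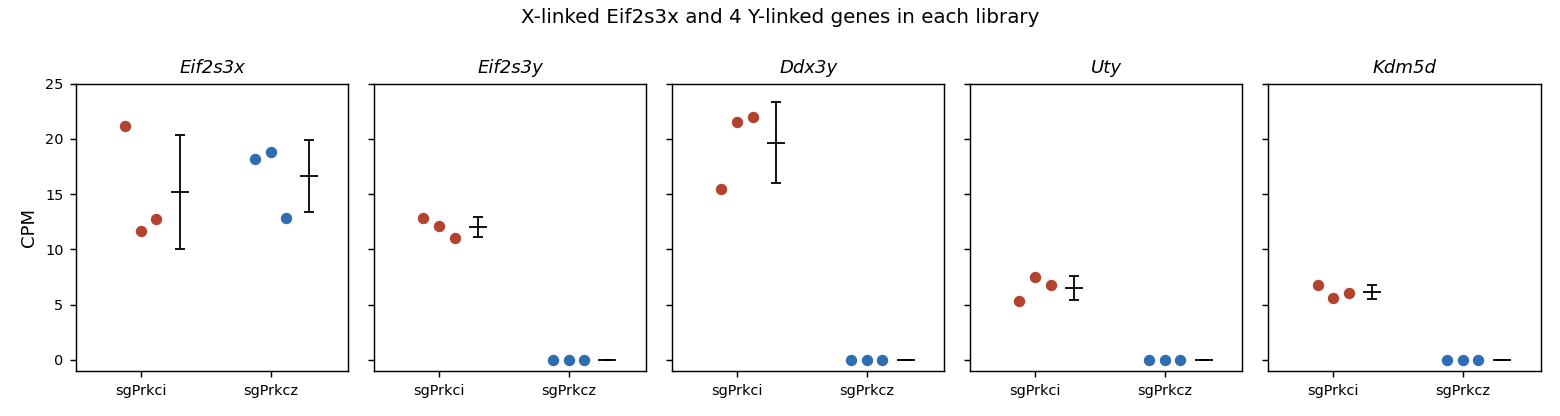
CPM of Eif2s3x and of 4 Y-linked genes in each library (red sgPrkci, blue sgPrkcz), with mean and SD of 3 libraries in black. All 4 Y-linked genes are at 0 in the 3 sgPrkcz libraries and at 5.28 to 22.0 CPM in the sgPrkci libraries, while Eif2s3x overlaps between the groups.

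None of the 4 kinases that phosphorylate eIF2 passed the test, nor did Eif2a and Eif2d, whose products deliver tRNA to ribosomes by other routes. By limma 0 of these 6 genes had an adjusted p under 0.05, and 1, Eif2d, had an unadjusted p under it. With TMM factors Eif2d was higher, and with edgeR Eif2d and Eif2ak1 were, while DESeq2 called none. Eif2ak4 (GCN2, activated by uncharged tRNA) measured 10.2, 14.01 and 18.5 CPM in sgPrkci against 21.9, 21.3 and 15.2 CPM in sgPrkcz, with replicates 12 and 15 in the range of the other group (-0.45 ± 0.22, adjusted p = 0.113). Without replicate 12 or without replicate 15 it passed (adjusted p = 0.0439 and 0.0449). Eif2ak1 (HRI, activated by heme deficiency) measured 53.6, 41.6 and 52.6 CPM against 35.6, 48.9 and 40.4 CPM, with overlap (0.24 ± 0.15, adjusted p = 0.197). Eif2ak2 (PKR, activated by double-stranded RNA) measured 41.9, 54.2 and 49.0 CPM against 38.6, 43.9 and 46.8 CPM (0.16 ± 0.14). Eif2ak3 (PERK, activated by unfolded protein in the endoplasmic reticulum) was the lowest of the kinases, at 7.17, 15.4 and 8.17 CPM against 10.4, 3.77 and 8.78 CPM (0.40 ± 0.32). The groups overlapped for all 4 kinases. Eif2a, the most abundant of the 6, measured 93.9, 92.9 and 104 CPM against 104, 87.9 and 112 CPM and its difference changed sign with TMM factors (-0.06 and 0.06). Eif2d was higher in every sgPrkci library, at 27.2, 28.5 and 32.0 CPM against 23.4, 25.1 and 17.6 CPM (0.40 ± 0.17, adjusted p = 0.0655, and 0.0187 with TMM factors). Without replicate 14 of sgPrkcz its adjusted p was 0.0371.

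eIF3, the largest initiation factor, bridges the ribosome and the mRNA. Of the families with more than 3 tested genes it had the largest share of lower calls, with 10 of 13 genes lower, 0 higher (also 0 at an unadjusted p under 0.05 in limma, and 0 in edgeR and DESeq2) and a median log2 fold change of -0.44. With TMM factors 9 were lower, with edgeR 7 and with DESeq2 6, where 19.8%, 20.2% and 14.1% of all genes were. By limma without TMM factors, 26.5% of all genes were lower. Eif3d (chromosome 15, 77958998 to 77970813, minus strand), a subunit able to bind the mRNA cap, measured 70.9, 68.7 and 66.8 CPM in sgPrkci against 118, 125 and 130 CPM in sgPrkcz. The spread within each group was small against the gap between them (-0.84 ± 0.10, adjusted p = 5.58e-07). Eif3j1, a loosely bound subunit near the decoding site, measured 39.6, 50.0 and 41.6 CPM against 85.3, 77.2 and 74.3 CPM (-0.84 ± 0.12, adjusted p = 9.95e-06). Its copy Eif3j2 gave 3.39, 3.74 and 0.710 CPM against 3.34, 8.16 and 1.76 CPM, below the filter. The 3' end of Eif3j2 matches part of an Eif3j1 transcript, although the 3' end of Eif3j1 itself matched no other gene. The split of reads between Eif3j1 and Eif3j2 is therefore uncertain. Eif3e (chromosome 15, 43250058 to 43282719, minus strand), a subunit of the eIF3 core, measured 182, 209 and 222 CPM against 358, 276 and 365 CPM, with every sgPrkci library lower (-0.69 ± 0.10, adjusted p = 7.85e-06).

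Eif3c and Eif3a, the most abundant subunits, differed by less than Eif3d. Eif3c (chromosome 7, 126546455 to 126566411, minus strand), a scaffold of the complex, measured 527, 515 and 522 CPM in sgPrkci against 704, 729 and 689 CPM in sgPrkcz (-0.44 ± 0.07, adjusted p = 1.82e-05), with no overlap and little spread in either group. Eif3a, the other large scaffold and the most abundant eIF3 gene, was lower by -0.29 ± 0.07 (adjusted p = 0.00147), a call that edgeR (adjusted p = 0.0533) and DESeq2 (adjusted p = 0.0716) did not make. Eif3h and Eif3f, which share a fold with deubiquitinating proteases, were lower by -0.50 and -0.34 (for Eif3f not with DESeq2, adjusted p = 0.119), and Eif3l, the partner of eIF3k, by -0.57. Eif3g, an RNA-binding subunit, was lower by -0.45 (adjusted p = 0.00913), but the adjusted p was 0.0769 without replicate 11, 0.0534 without replicate 14, 0.0587 with edgeR and 0.158 with DESeq2. Eif3i was lower by -0.28 (adjusted p = 0.0326), and its call was lost with TMM factors (adjusted p = 0.216) and when replicate 10, 11, 13 or 15 was left out (adjusted p = 0.0836 to 0.119). Eif3k was the most abundant subunit that did not pass, at 106, 115 and 114 CPM against 120, 124 and 105 CPM. Its groups overlapped and its difference (-0.06 ± 0.10) turned to 0.06 with TMM factors. Eif3m (-0.04) likewise changed sign with TMM factors, to 0.07, and Eif3b, the remaining large subunit, gave -0.18 and overlapped. Reads of Eif3m cannot be told from those of the overlapping antisense gene Ccdc73 if strand was not used in counting, which the sources used here do not state.

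The eIF4 factors recruit mRNA to the ribosome. Of 10 tested genes 6 were lower and 1 was higher (4 and 2 with TMM factors), with a median log2 fold change of -0.30. Of all genes 26.5% were lower and 14.4% higher (19.8% and 20.7% with TMM factors), so the share called higher was near that of all genes. The gene with the largest difference was Eif4a3 (ENSMUSG00000025580, chromosome 11, 119288363 to 119300089, minus strand). Its product shares the eIF4A fold but is known as the RNA clamp of the exon junction complex, which marks spliced mRNA, rather than as a helicase of cap-dependent initiation. Eif4a3 measured 82.6, 71.5 and 72.8 CPM in sgPrkci against 157, 169 and 154 CPM in sgPrkcz. Every sgPrkcz library was thus far above every sgPrkci library (-1.07 ± 0.10, adjusted p = 1.28e-08), and 3 copies that share its 3' end held at most 6.03 CPM in all.

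The helicases of initiation itself differed less. Eif4a1, the main eIF4A, measured 83.4, 70.1 and 68.5 CPM against 92.7, 80.3 and 78.4 CPM, with overlap, and did not pass (-0.18 ± 0.11, adjusted p = 0.216). Eif4a2, its close paralog, measured 33.6, 47.6 and 33.4 CPM against 60.1, 48.9 and 44.5 CPM, with replicate 11 above replicate 15 (-0.42 ± 0.15, adjusted p = 0.0324). That call was lost with TMM factors (adjusted p = 0.105) and when replicate 10, 12 or 13 was left out (adjusted p = 0.135 to 0.165), and Rfc4 overlaps it on the opposite strand. Of the cofactors that stimulate eIF4A, Eif4b measured 152, 139 and 153 CPM against 194, 203 and 188 CPM, lower in every sgPrkci library (-0.40 ± 0.09, adjusted p = 0.000716). Eif4h, a relative of Eif4b, moved the opposite way, at 213, 191 and 203 CPM against 174, 183 and 169 CPM, without overlap. Its difference was small (0.21 ± 0.08, adjusted p = 0.0498), was larger with TMM factors (0.32, adjusted p = 0.00311) and was no longer called when replicate 10, 12, 13 or 15 was left out (adjusted p = 0.101 to 0.184).

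The scaffold genes were not alike. Eif4g1, the main scaffold between cap and ribosome, measured 462, 415 and 423 CPM in sgPrkci against 513, 586 and 533 CPM in sgPrkcz (-0.33 ± 0.08, adjusted p = 0.00127). Eif4g2, a relative that lacks the eIF4E-binding part, measured 423, 406 and 330 CPM against 530, 502 and 469 CPM (-0.38 ± 0.09, adjusted p = 0.00123). Both were lower in every sgPrkci library, and both missed the threshold without the intensity trend (adjusted p = 0.0519 and 0.0582), Eif4g1 also with DESeq2 (adjusted p = 0.0551). By contrast Eif4g3, a paralog of Eif4g1, overlapped at 91.7, 107 and 90.2 CPM against 107, 97.3 and 67.9 CPM (0.11 ± 0.13, adjusted p = 0.546). Of the cap-binding proteins, Eif4e measured 115, 113 and 115 CPM against 141, 127 and 150 CPM (-0.28 ± 0.09, adjusted p = 0.0217). Its call was lost with TMM factors (adjusted p = 0.181) and when replicate 10, 11, 13 or 15 was left out (adjusted p = 0.0537 to 0.101). Eif4e2, a cap-binding protein known to repress translation, was the most abundant eIF4 gene that did not pass, and it was higher in every sgPrkci library at 117, 111 and 119 CPM against 102, 101 and 98.9 CPM (0.20 ± 0.09, adjusted p = 0.0891, and 0.00905 with TMM factors). Eif4e3 had 0 of 13607184 reads over the 6 libraries, which allows a level of up to 0.22 CPM.

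The 3 measured regulators that bind eIF4E were all lower in sgPrkci, by a median of -0.61 on the log2 scale (2 of 3 with TMM factors). Of all genes 26.5% were lower, and 19.8% with TMM factors. Eif4ebp1 (chromosome 8, 27260329 to 27276674, plus strand), a repressor that releases eIF4E when mTORC1 phosphorylates it, measured 80.0, 71.5 and 91.3 CPM in sgPrkci against 143, 160 and 139 CPM in sgPrkcz. All 3 sgPrkci libraries were below the sgPrkcz libraries (-0.86 ± 0.10, adjusted p = 8.99e-07). Eif4enif1, which carries eIF4E into the nucleus, measured 30.6, 35.5 and 34.1 CPM against 47.5, 55.9 and 50.9 CPM, again without overlap (-0.61 ± 0.13, adjusted p = 0.000961). Eif4ebp2 measured 69.8, 74.7 and 53.3 CPM against 91.6, 93.5 and 73.7 CPM, with replicate 11 just above replicate 15 (-0.39 ± 0.13, adjusted p = 0.0192). Its call was lost with TMM factors (adjusted p = 0.0786) and without replicate 12, 13 or 14 (adjusted p = 0.0665 to 0.150).

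**Figure D4:**
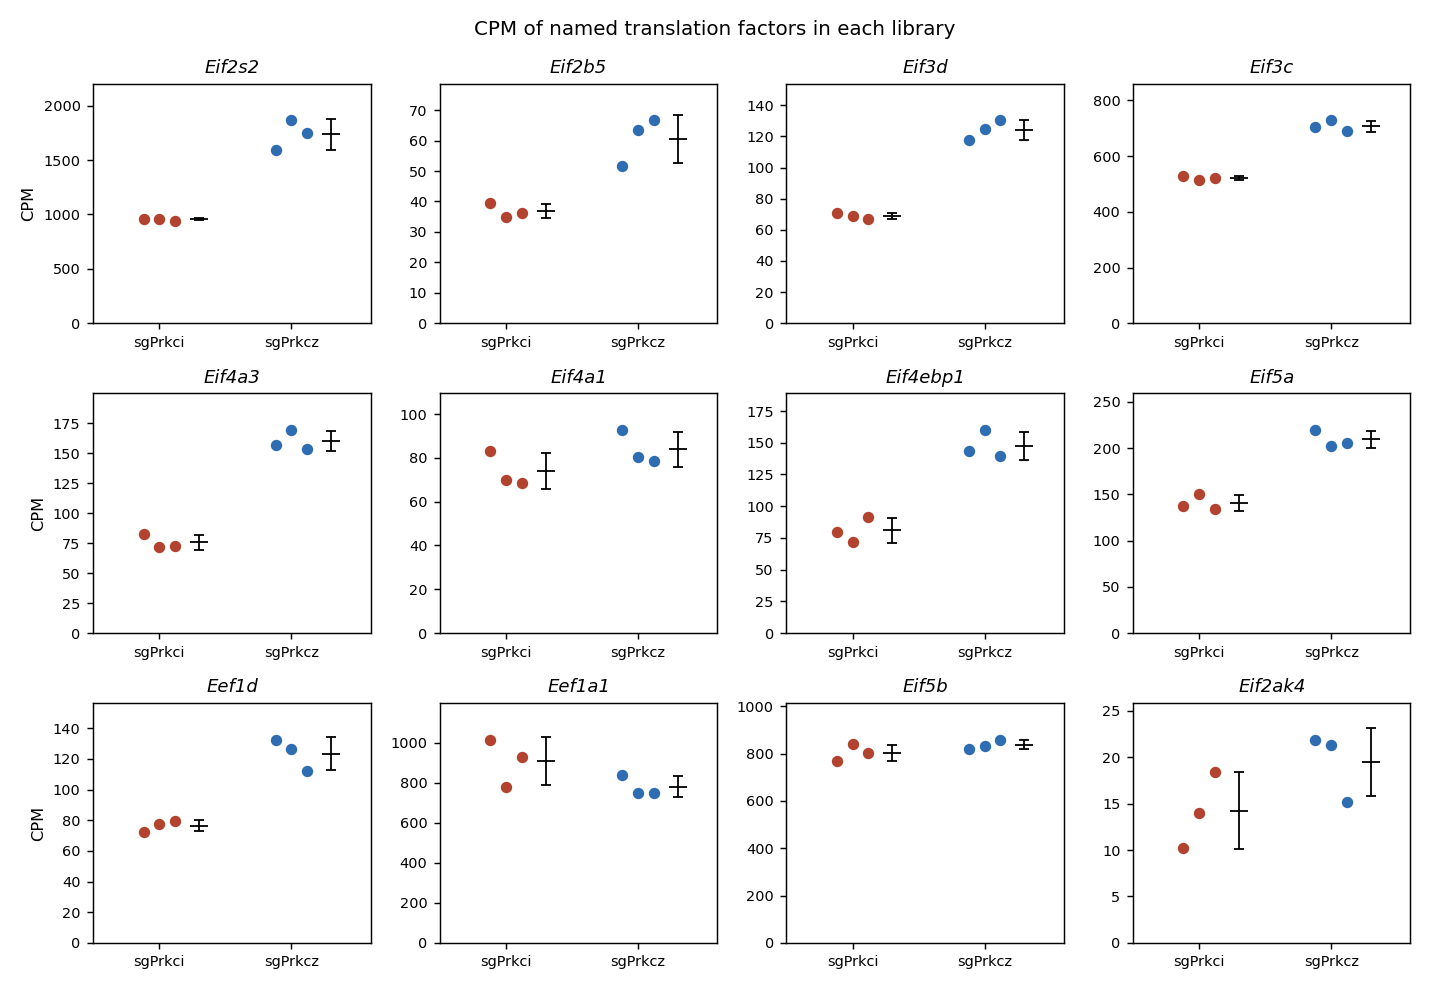
CPM of 12 named translation factors in each library (red sgPrkci, blue sgPrkcz), with mean and SD of 3 libraries in black and axes from 0. The groups are apart for Eif2s2, Eif2b5, Eif3d, Eif3c, Eif4a3, Eif4ebp1, Eif5a and Eef1d and overlap for Eif4a1, Eef1a1, Eif5b and Eif2ak4.

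Of the 9 tested genes of eIF1, eIF5 and eIF6, which act in start codon choice, subunit joining and after it, 5 were lower and 0 higher, with a median of -0.28. Only 3 remained lower with TMM factors, which were Eif5a, Eif1a and Eif1ad. Of all genes 26.5% were lower, and 19.8% with TMM factors. Eif5a (chromosome 11, 69916714 to 69921958, minus strand), whose product carries the amino acid hypusine and eases peptide bond formation at difficult sequences, measured 137, 151 and 135 CPM in sgPrkci against 220, 203 and 206 CPM in sgPrkcz. Each group was tight and they did not overlap (-0.57 ± 0.09, adjusted p = 1.47e-05). Its paralog Eif5a2 had a single read in all libraries together, in replicate 13. Eif1a, an autosomal gene for eIF1A, measured 162, 170 and 158 CPM against 210, 222 and 226 CPM (-0.42 ± 0.08, adjusted p = 0.000263), while X-linked Eif1ax overlapped at 264, 274 and 298 CPM against 304, 306 and 274 CPM and changed sign with TMM factors (-0.08 and 0.03). Eif1ad, named for its eIF1A-like domain, measured 33.2, 20.1 and 27.7 CPM against 45.6, 48.9 and 44.5 CPM, lower in every sgPrkci library (-0.79 ± 0.16, adjusted p = 0.000539).

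Eif1, which guards the choice of the start codon, measured 138, 169 and 163 CPM against 202, 198 and 172 CPM, with no overlap but with replicates 11 and 15 close together (-0.28 ± 0.10, adjusted p = 0.0205). The call was lost with TMM factors (adjusted p = 0.158) and without replicate 10, 13 or 14 (adjusted p = 0.0664 to 0.151). Its 3' end is shared by 6 other genes, 4 of them in the table with up to 95.5 CPM together, so its count is uncertain. Its paralog Eif1b did not pass, at 114, 124 and 117 CPM against 110, 112 and 115 CPM (0.08 ± 0.09). Eif5, which triggers GTP hydrolysis by eIF2, was lower by -0.19 (adjusted p = 0.0344), not with TMM factors (adjusted p = 0.452) nor when replicate 10, 11, 13, 14 or 15 was left out (adjusted p = 0.0514 to 0.126). Eif5b, the factor that joins the ribosomal subunits, was the most abundant gene of this family that did not pass. It measured 768, 838 and 800 CPM against 821, 831 and 858 CPM, overlapped and changed sign with TMM factors (-0.06 and 0.05), and Rev1 overlaps its 3' end on the opposite strand. Eif6, which keeps the large subunit from joining early, did not pass (-0.33 ± 0.15, adjusted p = 0.0761), although it did without replicate 15 (adjusted p = 0.0191).

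Elongation factor genes were called in both directions. Of 6 tested genes 3 were lower (50.0%) and 1 was higher (16.7%), beside 26.5% and 14.4% of all genes. With TMM factors 2 were lower and 1 higher, beside 19.8% and 20.7% of all genes. The share called higher was thus near that of all genes. The median was -0.28. Eef1a1 (chromosome 9, 78478449 to 78489151, minus strand), which delivers aminoacyl-tRNA, measured 1013, 777 and 928 CPM in sgPrkci against 839, 749 and 749 CPM in sgPrkcz. Replicate 11 lay below replicate 13, so the groups overlapped, and the call of a higher level (0.21 ± 0.08, adjusted p = 0.0471) was lost when replicate 10, 12, 14 or 15 was left out (adjusted p = 0.122 to 0.299). With TMM factors the difference was 0.33 (adjusted p = 0.0024). The 3' end of Eef1a1 is shared by 12 other genes, 6 of them in the table with up to 179 CPM together, so its count is uncertain.

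Of the 3 subunit genes of eEF1B, the complex that recharges eEF1A with GTP, 2 were lower. Eef1d (chromosome 15, 75894205 to 75909556, minus strand), the δ subunit, measured 72.4, 77.5 and 79.2 CPM in sgPrkci against 132, 126 and 112 CPM in sgPrkcz, far apart (-0.68 ± 0.10, adjusted p = 1.24e-05). Naprt, whose annotation overlaps its 3' end on the same strand, was at 0. Eef1g, the γ subunit, measured 365, 402 and 366 CPM against 462, 560 and 492 CPM, lower in every sgPrkci library (-0.41 ± 0.08, adjusted p = 0.000238). Eef1b2, the β subunit and the most abundant elongation gene that did not pass, measured 904, 1029 and 892 CPM against 1040, 1044 and 1024 CPM, with only replicate 11 inside the sgPrkcz range (-0.14 ± 0.07, adjusted p = 0.114, and 0.0339 without replicate 11). Within a library the summed CPM of these 3 genes was 1.57 ± 0.327 times that of Eef1a1 in sgPrkci and 2.14 ± 0.182 times in sgPrkcz. The groups did not overlap but almost touched, at 1.941 in replicate 11 of sgPrkci and 1.949 in replicate 13 of sgPrkcz. Eef2, which moves the ribosome along, measured 1090, 938 and 943 CPM against 1144, 1244 and 1136 CPM (-0.25 ± 0.07, adjusted p = 0.0086), a difference no longer called with TMM factors (adjusted p = 0.150), edgeR (adjusted p = 0.168) or DESeq2 (adjusted p = 0.235). The ratio of Eef1a1 to Eef2 in a library was 0.914 ± 0.0788 in sgPrkci and 0.665 ± 0.0654 in sgPrkcz, again with no overlap. Among all pairs of tested genes with reads in every library 48.2% did not overlap in either direction. The lack of overlap is thus no result about Eef1a1 and Eef2, and the count of Eef1a1 is uncertain. Eef1e1, a scaffold of the tRNA synthetase complex, was lower in every sgPrkci library but did not pass (-0.31 ± 0.14, adjusted p = 0.0788).

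None of the 4 tested enzymes that modify elongation factors passed in limma, where 1 had an unadjusted p under 0.05, or in DESeq2. Eef2k, the kinase that inhibits eEF2, was higher in every sgPrkci library at 26.02, 18.2 and 21.3 CPM against 14.5, 17.6 and 15.8 CPM (0.42 ± 0.19, adjusted p = 0.0825), and passed with TMM factors (adjusted p = 0.0296) and with edgeR (adjusted p = 0.0166). Eef2kmt, which methylates eEF2 and was the most abundant of the 4, measured 27.9, 19.6 and 30.9 CPM against 25.96, 32.0 and 33.4 CPM, with overlap (-0.23 ± 0.18). The eEF1A methyltransferase genes Eef1akmt1 and Eef1akmt2 lay at 2.51 to 11.1 CPM with overlap, where counting error is large.

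Ratios between related factors within a library, which no scaling changes, were compared for 10 pairs. In 6 of them the groups did not overlap, and among all pairs of tested genes with reads in every library 48.2% did so in either direction, so the count is no result about these factors. None passed the test and none could, as each of the 6 was at the smallest p that 3 against 3 libraries allow (2-sided exact permutation p = 0.1, or 0.167 after Benjamini-Hochberg adjustment over the 10 pairs). The ratio of Eif4a3 to Eif4a1 was 0.991, 1.02 and 1.06 in sgPrkci and 1.69, 2.11 and 1.96 in sgPrkcz. Thus the 2 genes gave about equal tags in sgPrkci, and Eif4a3 led in every sgPrkcz library. The ratio of Eif4e to the repressor Eif4e2 was 0.977, 1.02 and 0.967 against 1.38, 1.25 and 1.51. That of Eif4g2 to Eif4g3 was 4.02 ± 0.520 against 5.68 ± 1.07, that of Eif1 to Eif1b 1.32 ± 0.0963 against 1.70 ± 0.186, and that of Eif1a to Eif1ax 0.588 ± 0.0507 against 0.746 ± 0.0688. Of the remaining non-overlapping pairs, Eif4a3 to Eif4a2 gave 2.05 ± 0.494 against 3.18 ± 0.491. The 4 pairs that overlapped were Eif4a2 to Eif4a1, Eif4g1 to Eif4g3, Eif4g1 to Eif4g2 (1.13 ± 0.135 against 1.09 ± 0.107) and Eif4ebp1 to Eif4ebp2. Levels are of 3' tags, whose yield differs between genes, so a ratio compares libraries and is no measure of relative protein.

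**Figure D5:**
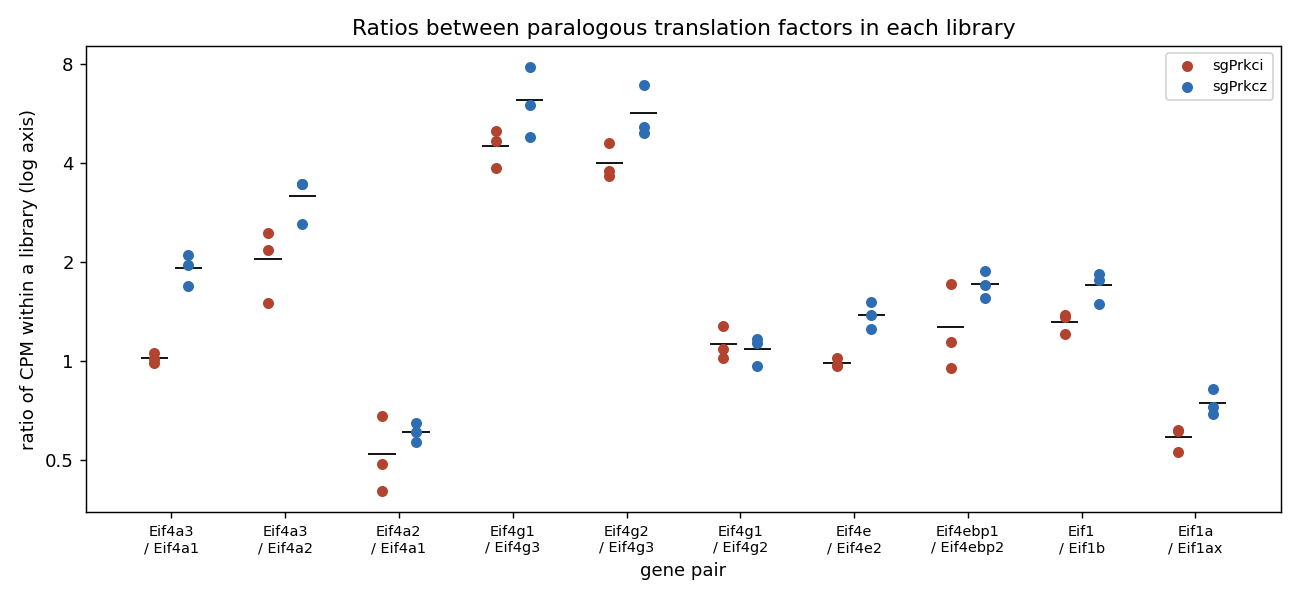
Ratio of CPM between 10 pairs of related translation factors within each library (log axis, red sgPrkci, blue sgPrkcz), with the mean of 3 libraries as a black line. The ratio of Eif4a3 to Eif4a1 lies between 0.991 and 1.06 in sgPrkci and between 1.69 and 2.11 in sgPrkcz, and 4 of the 10 pairs overlap.

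Other genes of translation, in lists of known partners, were counted by the same test, to be read against the 26.5% of all genes that were lower and the 14.4% that were higher. Counts with TMM factors are to be read against 19.8% lower and 20.7% higher. Of 8 tested termination, recycling and reinitiation genes 6 were lower and 0 higher (3 lower with TMM factors). The leading ones were Abce1, which splits the ribosome after termination (119, 140 and 116 CPM in sgPrkci against 222, 217 and 212 CPM in sgPrkcz, -0.80 ± 0.09, adjusted p = 3.37e-07), and Etf1, the release factor (223, 207 and 211 CPM against 343, 325 and 300 CPM, -0.59 ± 0.08, adjusted p = 3.76e-06). Both were lower in every sgPrkci library. Of 12 poly(A)-binding and cap-linked partners 7 were lower and 2 higher (6 and 3 with TMM factors, where Paip2, named after its values were seen, was also higher). Larp1, the binder of pyrimidine-led mRNAs, fell from 163, 196 and 179 CPM in sgPrkcz to 97.7, 99.9 and 78.8 CPM in sgPrkci (-0.96 ± 0.10, adjusted p = 1.86e-07), and the helicase gene Ddx3x was lower by -0.38 ± 0.07 (adjusted p = 0.000235). The 2 higher genes, named after their values were seen, were Pdcd4, an inhibitor of eIF4A (0.69 ± 0.15, adjusted p = 0.000874), and Dap (0.47 ± 0.09, adjusted p = 0.000293).

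Of 11 tested genes on eIF2 phosphorylation and the response to it, 5 were lower and 0 higher. With TMM factors 5 were lower and 3 higher, the latter being Ddit3, Nck1 and Ppp1r15b, named after their values were seen. Atf4, the transcription factor whose translation rises when eIF2 is phosphorylated, measured 469, 559 and 491 CPM in sgPrkci against 1261, 1352 and 1517 CPM in sgPrkcz. The gap between the groups was larger than for any translation factor gene with reads in both groups (-1.44 ± 0.08, adjusted p = 3.02e-12). Trib3, a target of ATF4, measured 37.0, 34.6 and 39.4 CPM against 103, 108 and 88.9 CPM (-1.41 ± 0.12, adjusted p = 4.08e-09). The other lower genes, named after their values were seen, were the ATF4 targets Chac1 (-1.66), Atf5 (-1.22) and Asns (-0.41). In the same libraries none of the 4 eIF2 kinase genes was called by limma.

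The lists of regulators and of mitochondrial factors were mixed. Of 13 mTOR and MNK genes 2 were lower, 2 higher and 9 did not pass (1 lower and 2 higher with TMM factors). Ddit4, an inhibitor of mTORC1, measured 376, 329 and 367 CPM in sgPrkci against 198, 195 and 242 CPM in sgPrkcz (0.76 ± 0.09, adjusted p = 5.72e-07), and Mknk2, a kinase of eIF4E, measured 77.3, 77.1 and 94.8 CPM against 38.9, 44.6 and 42.1 CPM (0.97 ± 0.12, adjusted p = 1.54e-06). Both were higher in every sgPrkci library. The 2 lower genes, named after their values were seen, were Rps6kb1, a kinase downstream of mTORC1 (-0.66 ± 0.10, adjusted p = 8.42e-06), and Rheb, its activator, whose call was lost with TMM factors (-0.32 ± 0.09, adjusted p = 0.00914). Of 7 genes of eIF5A hypusination, eEF2 diphthamide and the eIF5 mimics 4 were lower and 1 higher (3 and 1 with TMM factors), led by the diphthamide genes Dph3 (-0.60 ± 0.13, adjusted p = 0.000619) and Dph6 (-0.65 ± 0.15, adjusted p = 0.0012). Of 10 mitochondrial translation factors 3 were lower under both scalings (30.0%, near the 26.5% of all genes, beside 19.8% with TMM factors) and 0 higher. They were led by the initiation factor gene Mtif2 (-0.84 ± 0.12, adjusted p = 8.73e-06) and the elongation factor gene Tsfm (-0.73 ± 0.15, adjusted p = 0.000637).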

How the data were processed

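RNA of 6 MTO cultures was made by the authors into QuantSeq 3' FWD libraries, sequenced single-end, with genome build GRCm38 per the labels. The aligner, counter, annotation, strand use and handling of molecular identifiers are, in the sources used here, not given. The study lists a Lexogen QuantSeq cloud pipeline (BlueBee) among its software without tying it to these libraries, and names molecular identifiers as an option of the kit. The authors deposited CPM, each column adding up to 1000000, and 100% of them were whole multiples of a read within 0.01, so reads were recovered. No column was left unmapped.

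Symbols, biotypes and coordinates came from GENCODE M21. Values of log2(CPM + 1) were fitted with limma 3.58.1 (R 4.3.3, intensity trend) over the 9558 genes that reached 5 CPM in 3 or more libraries, with Benjamini-Hochberg adjustment over all of them and a threshold of 0.05. This scale understates the change of low genes. Alternatives were TMM factors, no rRNA-like genes, quantile normalization, no filter or 10 CPM, pseudocounts 0.1 and 10, no trend, edgeR 4.0.16 and DESeq2 1.42.0 on the recovered reads (edgeR called 3941 genes), and leaving out each library. Tests were checked on simulated data that did not model the difference in rRNA-like share between the groups. That check therefore does not bear on the shift with scaling. Shared 3' ends were at least 97% identical over at least 75 of the last 300 bases. Motifs were searched in RefSeq promoters.

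Named with values in each library were up to 4 called members per family by adjusted p, the most abundant uncalled member, fixed paralog sets and kinases, and up to 2 genes per further list. Members and lists were chosen with earlier results of these data known. For CPM and ratios the error given is the SD (n = 3), for log2 fold changes the SE. Intervals and floors cover counting error only.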

Additional observations from a re-analysis of the deposited data

How the results depend on the processing

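Called lower in sgPrkci were 31 members, and 20 without the intensity trend, 19 with DESeq2 and 25 to 31 with a library left out. Called higher were 3 members, 6 with TMM factors, without the rRNA-like genes or with quantile normalization, 7 with edgeR, 1 with a pseudocount of 0.1 or without the trend, and 0 to 3 with a library left out. Of the eIF3 genes 6 in place of 10 were lower with DESeq2 and 8 to 10 with a library left out. Of the eIF4 factors 6 were lower, 2 without the trend, 3 with DESeq2 and 4 to 6 with a library left out, and 1 was higher, 2 with TMM factors, without the rRNA-like genes, with quantile normalization, edgeR or DESeq2, 0 with no filter, a pseudocount of 0.1 or no trend, and 0 to 1 with a library left out. Of the eIF1, eIF5 and eIF6 genes 5 were lower, 3 with TMM factors, without the rRNA-like genes, without the trend, with edgeR or with DESeq2, and 3 to 5 with a library left out. Of the elongation factors 1 was higher and 0 with a pseudocount of 0.1 or without the trend, and 0 to 1 with a library left out. Of the eIF2/eIF2B genes 1 was higher and 0 to 1 with a library left out, because only 2 libraries hold reads of Eif2s3y when an sgPrkci library is left out, which is short of the filter's 3. Apart from that, the cause of these shifts was not tested.

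Signs reversed only in members that passed in neither setting. With TMM factors the log2 fold changes became 0.033 for Eif1ax, 0.056 for Eif2a, 0.013 for Eif2b1, 0.058 for Eif3k, 0.070 for Eif3m and 0.054 for Eif5b. With edgeR they were 0.035 for Eif1ax, 0.051 for Eif2a, 0.055 for Eif3k, 0.055 for Eif5b and -0.16 for Eef1akmt2. With DESeq2 they were 0.035 for Eif1ax, 0.051 for Eif2a, 0.056 for Eif3k, 0.020 for Eif3m, 0.055 for Eif5b and -0.040 for Eef1akmt2. Without the rRNA-like genes they were 0.013 for Eif2a, 0.015 for Eif3k, 0.028 for Eif3m and 0.011 for Eif5b, with quantile normalization 0.056 for Eif3m and 0.018 for Eif5b, and with a pseudocount of 10 -0.0092 for Eef1akmt2. With a library left out they ranged from -0.42 to 0.48 for Eef1akmt2, -0.16 to 0.016 for Eif2a, -0.24 to 0.0016 for Eif2b1, -0.40 to 0.0047 for Eif2s3x, -0.24 to 0.17 for Eif3m and -0.086 to 0.24 for Eif4g3. Of the other values for single members 809 stayed on the same side of the threshold, 90 fell below it and 21 passed it. No paired analysis was possible because the replicate numbers of the groups differ.

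At 1593480 reads, the smallest library, 1 read is 0.628 CPM, so members under about 10 CPM rest on few reads. The rRNA-like share differs between the groups, and small differences change call with the scaling.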
